A study of Mus musculus with 6 samples.

Results

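The 8 genes described here encode transcription factors on the output side of the circadian clock together with the nuclear receptor Rora. They were chosen by symbol (Dbp, Tef, Hlf, Nfil3, Bhlhe40, Bhlhe41, Ciart and Rora), and all 8 were found among the 17891 named genes of the series, each listed in all 6 samples. Rora is the only member of the ROR family among them. RNA of mouse myocardium was sequenced at 6 weeks of age, in 3 samples of wild type (WT) and 3 of NS-DADm mice, all on a C57BL/6 background. NS-DADm mice carry knock-in mutations, present in the whole body, in the deacetylase activating domains (DADs) of the corepressors NCOR and SMRT. The comparison asks how the heart muscle transcriptome differs when both corepressors are mutated. The labels give neither the sex of the mice, nor the hour at which the tissue was taken, nor whether each sample came from its own animal, so the spread behind each p-value may be technical. The mutations are not limited to heart muscle, and in bulk tissue fewer cells of a type and less RNA per cell cannot be told apart.

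In the clock, the activators CLOCK, NPAS2 and ARNTL (BMAL1) bind E-boxes and switch on the period and cryptochrome genes, the REV-ERB genes Nr1d1 and Nr1d2, and a layer of output factors. DBP, TEF and HLF are bZIP proteins of the PAR family that activate genes through D-boxes, whereas NFIL3 (E4BP4) is a bZIP repressor of the same elements. BHLHE40 and BHLHE41 (DEC1 and DEC2) and CIART (CHRONO) repress transcription driven by CLOCK and ARNTL. RORA activates, and the REV-ERB proteins repress, genes that carry ROR response elements (ROREs), Arntl and Nfil3 among them. REV-ERB proteins repress through NCOR and the histone deacetylase HDAC3, which is switched on by the DAD of the corepressors.

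Sequences around the annotated starts show which of these elements lie close to each gene. RefSeq windows (GRCm38.p6), running from 250 bases before to 50 bases after a start, were matched for 7 of the 8 genes by symbol, with 2 windows for Tef. They were searched on both strands for the E-box CACGTG, the D-box TTANGTAA and the RORE half-site TAGGTCA, none of which contains another. Nfil3 was the only one of the 7 genes with the RORE half-site, which 2.61% of all 32851 windows hold. Its site is printed with that of Arntl because both genes stand on the list of RORE-controlled genes. Both are written on the strand that reads TAGGTCA, with the half-site in capitals.
Nfil3, chr13:52981034-52981063, + strand, opposite to the gene: atgtgtgttagTAGGTCAgttccgagcgcc
Arntl, chr7:113207529-113207558, + strand, same as the gene: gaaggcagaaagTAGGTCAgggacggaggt
The E-box was found in windows of 3 genes, Ciart, Tef and Bhlhe41, against 7.15% of all windows. It stood once in each window of Tef, once in that of Bhlhe41 and 3 times in that of Ciart. These stretches are printed because the E-box is the letter string that output genes are known to share, and CACGTG is in capitals.
Ciart, chr3:95882255-95882356, - strand: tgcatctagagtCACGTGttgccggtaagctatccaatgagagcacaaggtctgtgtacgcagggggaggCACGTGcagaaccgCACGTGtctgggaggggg
Tef, upstream start, chr15:81802534-81802563, + strand: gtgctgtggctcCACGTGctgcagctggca
Tef, downstream start, chr15:81811264-81811293, + strand: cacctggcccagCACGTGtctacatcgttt
Bhlhe41, chr6:145865556-145865585, - strand: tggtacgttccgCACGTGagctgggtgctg
No window of the 7 genes held the D-box letters, which 2.32% of all windows hold. The windows of Dbp, Hlf and Rora held none of the 3 motifs. That of Rora lies at the start of the transcript model NM_013646 (chr9:68653786), which was listed only in WT 1 and WT 2. The model NM_001289916, given 56.2% to 99.2% of Rora counts, is matched to a GENCODE transcript that starts at chr9:69289682, and that start was not searched. That transcript has 2591 exon bases against a deposited length of 10869 for the model, so their starts may differ. Among the other genes listed as RORE-controlled, the windows of Clock, Npas2, Cry1 and Nr1d1 did not hold the half-site. Another window of Arntl, at the start chr7:113207465, did not hold it either. Of the 8 genes, Bhlhe40 had no window. A match describes letters only, and binding was not measured.

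Total expected counts per library, the authors' estimates of reads per gene, were 10183792 to 11205221 in WT and 12262523 to 12758311 in NS-DADm, so every NS-DADm library was deeper. Heart muscle was well represented, with all 9 cardiomyocyte markers tested and summed levels of 56565 to 64528 FPKM in WT and 56063 to 63786 FPKM in NS-DADm. FPKM is the authors' estimate of reads scaled to gene length and library size. Libraries differed in atrial transcripts. The summed level of 10 atrial markers was 342 FPKM in WT 2, 610.38 in WT 1 and 644 in NS-DADm 2, against 3904.75 in NS-DADm 1, 4858 in WT 3 and 6762 in NS-DADm 3. Folds of NS-DADm over WT are therefore also given below within each of these sets of 3 libraries for the 8 genes and for some genes of the core loop. All 8 genes passed the filter on low counts, with 85 to 4861 counts per gene and sample.

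Dbp and Tef were the most abundant of the 8 genes. In WT, Dbp stood at 125 ± 25.8 FPKM (SD, n = 3) and Tef at 82.6 ± 9.07, and their ranges over the 3 samples did not overlap. Bhlhe40 followed at 27.2 ± 1.48 FPKM, above the remaining genes in every WT sample. Ciart (17.7 ± 4.92) and Hlf (16.8 ± 1.37) overlapped each other. Bhlhe41 stood at 9.28 ± 1.09 FPKM, above Rora (5.89 ± 0.67) and Nfil3 (5.32 ± 1.6), which overlapped. In NS-DADm the order was the same except for Nfil3, which at 12.6 ± 1.56 FPKM lay above Bhlhe41 and Rora in every sample and overlapped Ciart.

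**Figure D1:**
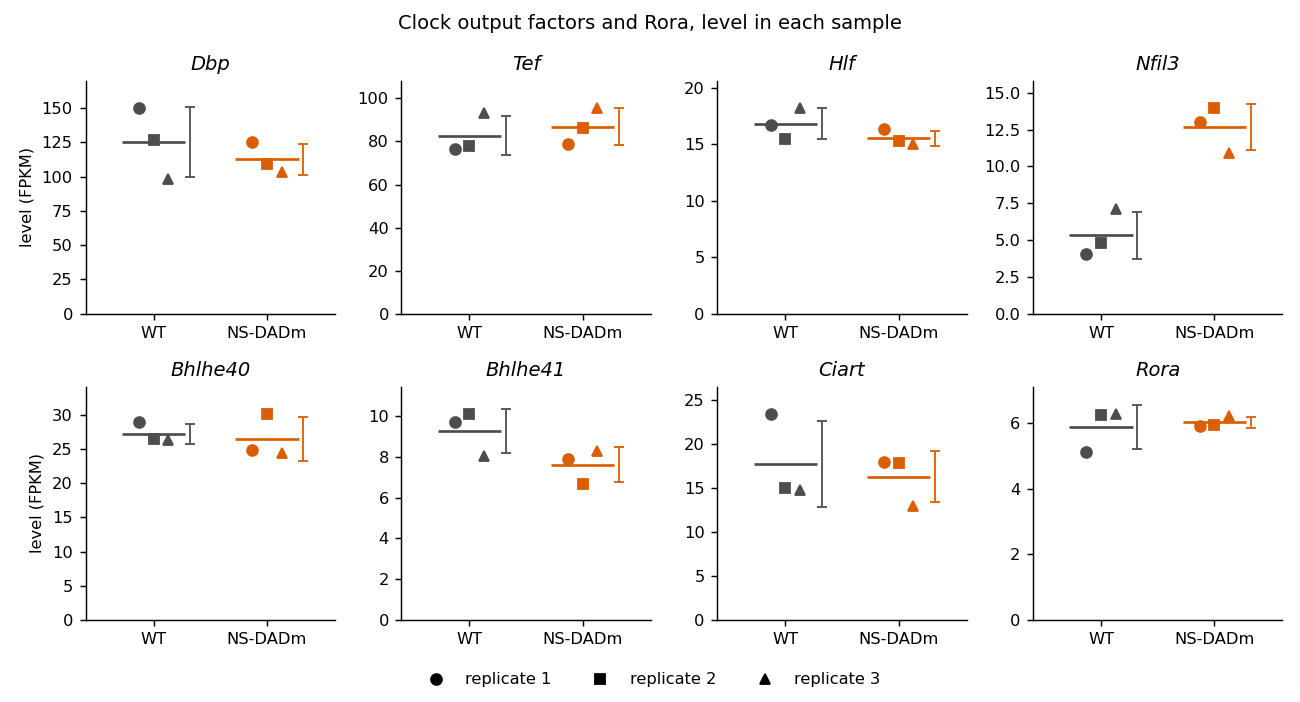
Level in FPKM (y axis, linear from 0) of the 8 genes in each WT and NS-DADm sample. Symbols are replicates, horizontal lines group means and vertical bars the SD over 3 samples. Nfil3 is the gene whose groups stand apart, with 4.06 to 7.12 FPKM in WT and 10.94 to 13.98 in NS-DADm.

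Nfil3, the D-box repressor, rose in NS-DADm myocardium and was the only one of the 8 genes that passed the test. It was listed at 4.06, 4.79 and 7.12 FPKM in WT 1, 2 and 3 and at 13.03, 13.98 and 10.94 FPKM in NS-DADm 1, 2 and 3, from 85 to 156 counts and 262 to 348 counts. The lowest NS-DADm sample lay above the highest WT sample, which was WT 3. The rise was 2.41-fold (95% interval 1.82 to 3.19), a log2 fold change of 1.27 (SE 0.18, adjusted p = 0.00647, edgeR quasi-likelihood test with Benjamini-Hochberg adjustment over 13130 genes). Over all genes tested, 3.2% were called changed at an adjusted p under 0.05, 1.79% upward and 1.41% downward. Groups that did not overlap were found for 1 of the 8 genes and for 23.4% of all genes tested (8.94% upward and 14.5% downward). Ordered by p, Nfil3 was number 72 of the 13130 genes. It was called under every one of the 17 alternatives, with log2 fold changes of 1.1 to 1.54 and an adjusted p of at most 0.0444, which was reached without WT 2. Among the libraries low in atrial transcripts the fold was 3.16 (WT 1 and WT 2 against NS-DADm 2), and among those high in them it was 1.68 (WT 3 against NS-DADm 1 and 3). With an atrial score (the mean log2 CPM of the 10 markers) in the model the log2 fold change was 1.23 (adjusted p = 0.00458, edgeR), and with all libraries thinned to equal depth it was 1.26 (adjusted p = 0.00864).

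NFIL3 is also known for its role in immune cells, where it is needed for natural killer and other innate lymphoid cells, and markers of immune cells were read beside it. All 12 tested macrophage markers had a positive fold change and 6 were called, where 1.79% of all genes were called upward: the complement genes C1qa, C1qb and C1qc and the receptors Csf1r, Folr2 and Cd14. The summed level of all 12 markers was 304 to 342 FPKM in WT and 398 to 456 FPKM in NS-DADm. The median log2 fold change of the 12 was 0.42, against 1.27 for Nfil3. The 10 markers of natural killer and innate lymphoid cells summed to 1.6 to 4.05 FPKM in WT and 0.89 to 1.98 FPKM in NS-DADm, and too few counts were present to test any of them. Of these, Eomes, Tbx21, Prf1 and Klrb1c were not listed in the tables of 1 or more samples and were taken as 0 there. Erythroid markers lay the other way, at 6708 to 7971 FPKM in WT and 3394 to 6680 FPKM in NS-DADm, and none of the 5 tested was called. The part of these cells in the rise of Nfil3 was not tested.

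The PAR bZIP activators did not pass the test. Dbp was listed at 150.19, 127.06 and 98.59 FPKM in WT 1, 2 and 3 and at 125.31, 109.34 and 103.47 FPKM in NS-DADm 1, 2 and 3. The highest and the lowest value were both WT samples, and the groups overlapped (log2 fold change -0.13, 95% interval -0.43 to 0.17, adjusted p = 0.678, edgeR). The fold of Dbp was 0.789 among libraries low in atrial transcripts and 1.16 among those high in them. Tef had 76.65, 78.09 and 93.03 FPKM in WT and 78.81, 86.26 and 95.66 FPKM in NS-DADm, with WT 3 and NS-DADm 3 the highest (log2 fold change 0.09, interval -0.11 to 0.29, adjusted p = 0.644). Its fold was 1.11 among the libraries low in atrial transcripts and 0.938 among those high in them. Hlf ranged from 15.51 to 18.25 FPKM in WT and from 15.08 to 16.33 in NS-DADm (log2 fold change -0.09, interval -0.25 to 0.07, adjusted p = 0.56), with folds of 0.949 and 0.861 in the low and the high atrial set. These intervals, like those below, are for each gene alone and are not adjusted for the number of genes. At the bound farther from no change, they reach a fold of 0.745 for Dbp, 1.23 for Tef and 0.841 for Hlf. Exons of Dbp overlap those of Sphk2 on the opposite strand in GENCODE, and Sphk2 had a mean of 8.13 FPKM. Whether the counting used strand is not given in the sources used here, so reads of the pair may not be told apart.

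The sum of the 3 activators can be set against the repressor of the same elements. Dbp, Tef and Hlf together had 243.6, 220.7 and 209.9 FPKM in WT 1, 2 and 3 and 220.4, 210.9 and 214.2 FPKM in NS-DADm 1, 2 and 3. Divided by the FPKM of Nfil3, this gave ratios of 60, 46.1 and 29.5 in WT and 16.9, 15.1 and 19.6 in NS-DADm. All NS-DADm ratios lay below the WT ratios, while the sums of the activators overlapped. The separation of the ratios therefore restates that of Nfil3. The ratio is a description of levels and was not tested.

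The repressors of the CLOCK and ARNTL dimer showed no called change. Bhlhe41 (DEC2) had the largest difference among them, with 9.69, 10.11 and 8.05 FPKM in WT 1, 2 and 3 and 7.88, 6.68 and 8.31 FPKM in NS-DADm 1, 2 and 3. WT 3 fell within the NS-DADm range, so the groups overlapped (log2 fold change -0.26, interval -0.5 to -0.03, unadjusted p = 0.0324, adjusted p = 0.225, edgeR). Among libraries low in atrial transcripts its fold was 0.675, and among those high in them 1.01. Bhlhe40 had folds of 1.09 and 0.938 in these sets, and Ciart 0.929 and 1.05. Bhlhe40 (DEC1) had 26.33 to 28.96 FPKM in WT and 24.49 to 30.17 in NS-DADm, where both the lowest and the highest sample were NS-DADm (log2 fold change -0.01, interval -0.22 to 0.19, adjusted p = 0.959). Ciart had 23.41, 15.02 and 14.76 FPKM in WT 1, 2 and 3 and 18, 17.86 and 12.9 FPKM in NS-DADm 1, 2 and 3. WT 1 stood above the other samples, and the interval of the log2 fold change was the widest of the 8, from -0.51 to 0.32 (value -0.1, adjusted p = 0.836).

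Rora, the RORE activator, stood at 6.04 ± 0.168 FPKM in NS-DADm (SD, n = 3), the lowest coefficient of variation of the 8 genes there (2.78%). WT 1, 2 and 3 had 5.12, 6.27 and 6.29 FPKM and NS-DADm 1, 2 and 3 had 5.93, 5.95 and 6.23 FPKM, with the NS-DADm samples inside the WT range (log2 fold change 0.02, interval -0.18 to 0.23, adjusted p = 0.93, edgeR). Its fold was 1.04 in the low and 0.967 in the high atrial set. The relative Rorb did not pass either. Rorb, with 10 to 25 counts per sample, stood at 0.19 to 0.25 FPKM in WT and 0.09 to 0.11 in NS-DADm, so that its groups did not overlap (log2 fold change -1.21, SE 0.3, adjusted p = 0.0609).

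**Figure D2:**
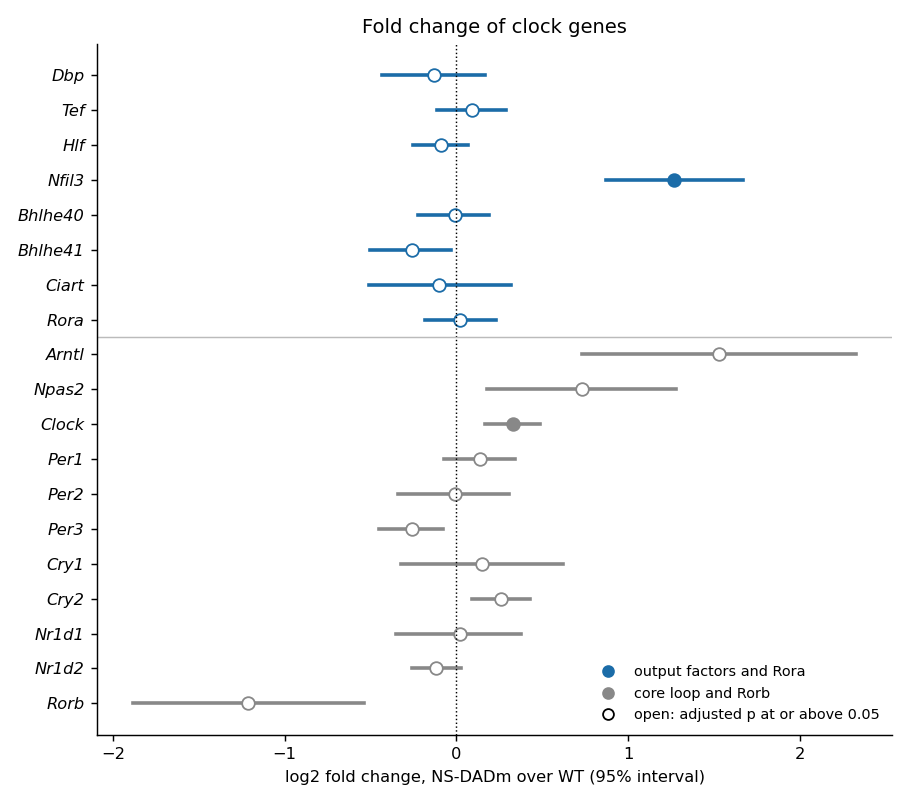
Log2 fold change, NS-DADm over WT (x axis), with 95% intervals for the 8 genes (blue), the core clock loop and Rorb (grey). Filled points passed an adjusted p of 0.05, which were Nfil3 (1.27) and Clock (0.33), and intervals of Dbp, Tef, Hlf, Bhlhe40, Ciart and Rora include 0.

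Set against the whole table, 1 of the 8 genes rose, none fell and 7 did not pass, where 3.2% of all genes were called. Their median log2 fold change was -0.05, and that of all genes tested was -0.0031. The core loop of 10 genes had 1 rise, 0 falls and 9 genes that did not pass, with a median of 0.14. Clock rose 1.26-fold, from 4.26 to 4.65 FPKM in WT to 5.44 to 5.55 FPKM in NS-DADm (adjusted p = 0.0405, edgeR). Of the other core genes, the period gene Per3 (9.4 to 10.02 FPKM in NS-DADm, 10.58 to 13.18 in WT) and the REV-ERB beta gene Nr1d2 (46.53 to 49.75 against 50.17 to 55.01) lay wholly lower. The cryptochrome gene Cry2 lay wholly higher, at 15.61 to 16.56 FPKM against 12.76 to 14.26 in WT. None of these passed the test, with log2 fold changes of -0.26, -0.12 and 0.26 and adjusted p of 0.132, 0.379 and 0.0978 (edgeR). Groups did not overlap for 6 of the 10 core loop genes, and for 23.4% of all genes tested (8.94% upward and 14.5% downward). Per1 and Per2 overlapped between the groups (0.14 and -0.01), and the fold of Per2 was 1.23 in the low and 0.726 in the high atrial set. The call of Clock ended without any 1 sample (adjusted p up to 0.125), at equal depth (0.0576) and with limma on log2 FPKM (up to 0.14). Its log2 fold change, 0.33 in all samples, was 0.29 to 0.37, 0.31, and 0.26 to 0.3 in these fits. Kinases and ubiquitin ligases of the clock, listed with the deubiquitinase gene Usp2, had 0 called genes of 9 tested (median 0.06). E-box-controlled genes (13), rhythmic output genes of several tissues (10) and the bHLH-Orange relatives of Bhlhe40 and Bhlhe41 (5) had 0 called genes, with medians of -0.01, 0.13 and 0.05. The lists overlap and are not separate evidence. On the E-box list stand Dbp, Tef, Ciart, Bhlhe40 and Bhlhe41, and Per1, Per2, Per3, Cry2, Nr1d1 and Nr1d2 of the core loop. Its remaining genes are also on the list of rhythmic output genes. Of 6 tested genes listed as PAR bZIP targets, Per1, Per2 and Per3 among them, 1 rose. That gene, Alas1, which encodes the first enzyme of haem synthesis, had 85.1, 67.3 and 70.15 FPKM in the WT samples and 102.2, 118.9 and 97.68 FPKM in those of NS-DADm. Its groups did not overlap (1.46-fold higher, log2 fold change 0.54, SE 0.1, adjusted p = 0.0231, edgeR). Leaving out WT 2 (adjusted p = 0.115), WT 3 (0.0538), NS-DADm 1 (0.0621) or NS-DADm 2 (0.0583) ended this call.

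Genes listed as RORE-controlled included the 2 called clock genes. Of 7 tested, Nfil3 and Clock rose and 5 did not pass, where 1.79% of all genes tested were called upward, and the median log2 fold change of the 7 was 0.33. The list was chosen with earlier results of these data known and includes Nfil3, so its counts are a description only. Arntl was listed at 0.36, 0.72 and 0.28 FPKM in WT 1, 2 and 3 and at 1.33, 0.99 and 1.46 FPKM in NS-DADm 1, 2 and 3, from 8 to 51 counts. Its groups did not overlap, and the test fell just short (log2 fold change 1.53, SE 0.36, adjusted p = 0.0508, edgeR). It was called under 6 of 16 alternatives, with adjusted p from 0.0142 to 0.156 over them, and its fold was 1.83 among the libraries low in atrial transcripts and 4.98 among those high in them. Npas2 had 0.59, 0.84 and 0.52 FPKM in WT and 0.98, 1.24 and 0.93 FPKM in NS-DADm. Its groups were separate too, and it did not pass (log2 fold change 0.73, SE 0.25, adjusted p = 0.153). In 4 of the 7 genes, Nfil3, Arntl, Npas2 and Clock, all NS-DADm samples lay above all WT samples, as did 8.94% of genes tested. Cry1 and Nr1d1 overlapped between the groups, with log2 fold changes of 0.15 (SE 0.21) and 0.02 (SE 0.16). In the low and the high atrial set, Cry1 had folds of 1.39 and 0.772 and Nr1d1 folds of 0.879 and 1.41.

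**Figure D3:**
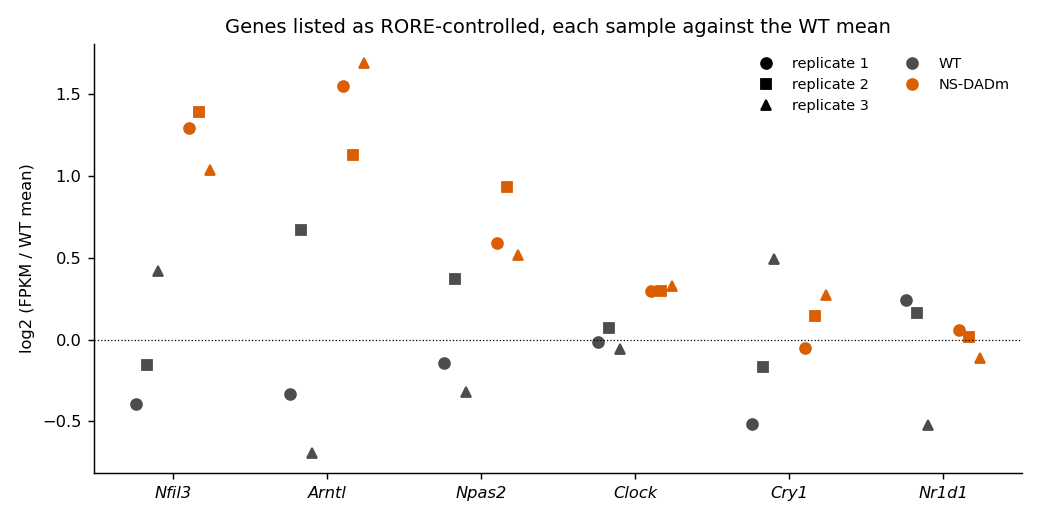
Log2 of each sample's FPKM over the WT mean (y axis) for 6 genes listed as RORE-controlled. Symbols are replicates, grey is WT and orange NS-DADm, and the groups are separate upward for Nfil3, Arntl, Npas2 and Clock, and overlap for Cry1 and Nr1d1.

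The order of the samples by Dbp crossed the genotypes and was shared, or reversed, by 2 of the 10 core loop genes. From high to low, Dbp ran WT 1, WT 2, NS-DADm 1, NS-DADm 2, NS-DADm 3, WT 3. Nr1d1, the REV-ERB alpha gene, had the same order, from 61.73 FPKM in WT 1 to 36.32 in WT 3. Cry1, a cryptochrome repressor, had the reverse order, with 3.92, 5, 5.41, 6.2, 6.78 and 7.89 FPKM along the same samples. The other 8 core loop genes, Arntl, Clock, Npas2, Per1, Per2, Per3, Cry2 and Nr1d2, had neither order. Of 13130 genes tested, 31 (0.236%), Dbp counted among them, had the order of Dbp and 33 (0.251%) had its reverse. Tef followed the reverse order but for WT 3 and NS-DADm 3, which were exchanged. The samples also differed in library depth and atrial content, and the hour of collection is not in the labels. With Dbp as a covariate, an alternative chosen after seeing the data, the log2 fold change of Nfil3 was 1.22 (adjusted p = 0.00415, edgeR).

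**Figure D4:**
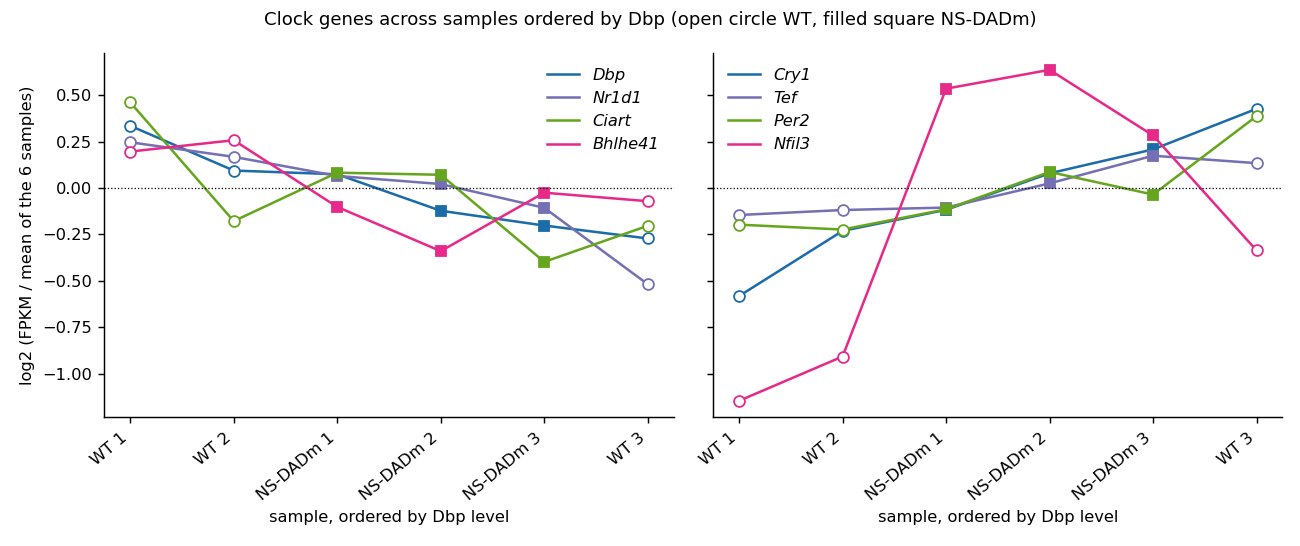
Log2 of FPKM over the mean of the 6 samples (y axis) for 8 clock genes, with samples ordered by Dbp (x axis). Open circles are WT and filled squares NS-DADm. Dbp and Nr1d1 are highest in WT 1 and lowest in WT 3, and Cry1 the reverse, while Nfil3 separates the genotypes, with all WT samples under all NS-DADm samples.

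The genes whose pattern over the 6 samples was most like that of Nfil3, among 11137 genes with a mean of at least 1 FPKM, included Cngb3, Sh3bp4, Edem1 and Ppp1r15a. Likeness is the mean product of standardised log2(FPKM + 1) values, which is 1 for identical patterns, and it ran from 0.994 for Cngb3 to 0.989 for Ppp1r15a. Ppp1r15a (GADD34), a phosphatase subunit of the stress response, had 10.05, 12.14 and 14.03 FPKM in WT 1, 2 and 3 and 22.11, 24.02 and 18.24 FPKM in NS-DADm 1, 2 and 3. Like Nfil3, it was highest in NS-DADm 2, and WT 3 was the highest WT sample. Ppp1r15a rose by a log2 fold change of 0.85 (SE 0.14, adjusted p = 0.0112, edgeR). Cngb3 and Sh3bp4 also rose (0.92 and 0.55), and Edem1 did not pass (0.27). Because these genes were picked for the pattern of Nfil3, which separates the groups, their folds and adjusted p add no support. For Dbp the closest were Znrd1, Atp5j2, Rab8a, Focad and Prdx5, with likeness of 0.998 to 0.976 and adjusted p of 0.646 to 0.871. With 6 samples and so many genes, such likeness is a description only.

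Transcript tables resolved Tef into 2 models with different starts. In GENCODE, NM_017376 begins at chr15:81811414, the start of the downstream window searched above. NM_153484 begins upstream at chr15:81802421, which is not the start of the upstream window (81802673) and lies outside it. The E-box stretch printed for that window (chr15:81802534-81802563) lies downstream of the GENCODE start of NM_153484. NM_153484 held 52.5%, 52.3% and 59.8% of the counts of Tef in WT 1, 2 and 3. Its shares were 63.9%, 60.4% and 67.6% for NS-DADm 1, 2 and 3. The NS-DADm shares all lay above the WT shares (54.9 ± 4.24% against 64 ± 3.64%, SD, n = 3, exact two-sided permutation p = 0.1, the smallest that 3 against 3 samples allow). NM_017376, which begins downstream, had 35.99, 36.78 and 36.94 FPKM in WT and 28.05, 33.73 and 30.48 FPKM in NS-DADm, without overlap, and was not called (log2 fold change -0.23, SE 0.08, adjusted p = 0.402, edgeR over 17498 transcripts). NM_153484 had 40.67 to 56.1 FPKM in WT and 50.75 to 65.18 in NS-DADm, and it did not pass either (log2 fold change 0.31, SE 0.16, adjusted p = 0.557). Within each group, the share of NM_153484 had the same order over the samples as the summed atrial markers, with WT 3 and NS-DADm 3 the highest, and the part of atrial tissue in the shares was not tested. The models share 92.5% and 85.7% of their exon bases in GENCODE, and the reads that separate them were not counted. Tef was taken up at transcript level after its values were seen.

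**Figure D5:**
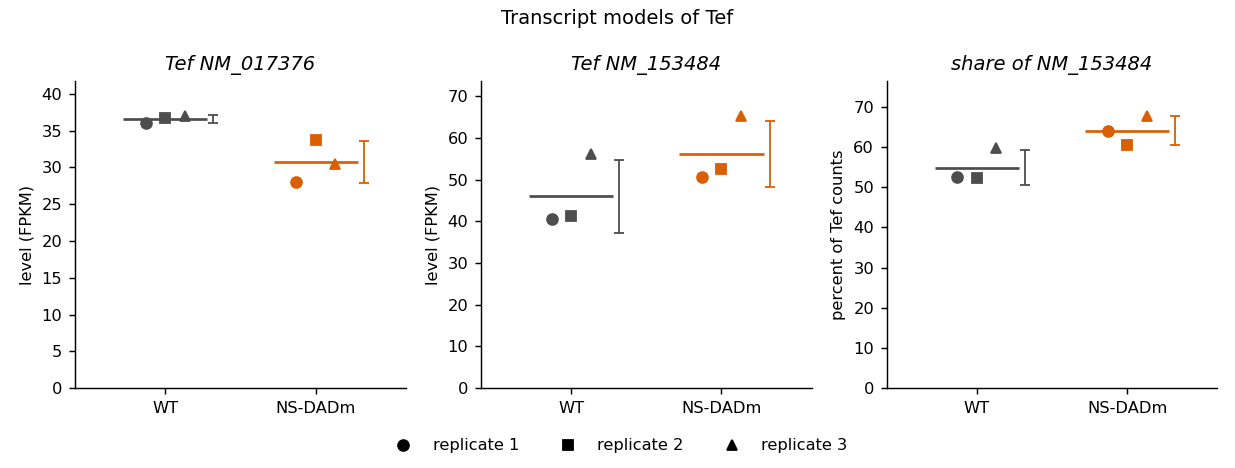
Level in FPKM of the 2 transcript models of Tef and the percentage of Tef counts given to NM_153484 (y axes, linear from 0) by group. Symbols are replicates, horizontal lines means and bars the SD over 3 samples, and the share is 52.3% to 59.8% in WT and 60.4% to 67.6% in NS-DADm.

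Transcript calls were few, at 0.0972% of transcripts, and the single model of Nfil3, with the same counts as the gene, did not pass in that table (log2 fold change 1.27, SE 0.23, adjusted p = 0.153, edgeR over 17498 transcripts). Rora counts went mainly to NM_001289916 and NM_013646, whose deposited lengths are 10869 and 10878 bases. NM_013646 was given 137.61 and 282.26 counts in WT 1 and WT 2 and was not listed in the tables of the other 4 samples, while the total for Rora overlapped between the groups. The GENCODE transcript matched to NM_001289916 shares 85.8% of its exon bases with NM_013646. These counts are estimates, and the reads that separate the 2 Rora models were not counted. Bhlhe41 counts went mainly to NM_024469, at 81.6% to 97.3% in WT and 93.6% to 100% in NS-DADm. Dbp, Hlf, Bhlhe40 and Ciart had 1 listed model each.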

How the data were processed

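Each of the 6 samples, 3 WT and 3 NS-DADm, had 1 gene table and 1 transcript table. The authors deposited expected (estimated) counts of reads and FPKM, the count scaled to length and library size, per the file headers. HISAT, an aligner, is named in the submitters' processing notes with no version; no source used here gives the counter, genome build or annotation. A gene not listed in a sample was taken as 0, and 1 row without a symbol (at most 0.00032% of counts) was left out. The deposited expected counts were rounded, kept by filterByExpr, scaled by TMM and tested with edgeR 4.0.16 (quasi-likelihood, R 4.3.3), with Benjamini-Hochberg adjustment over 13130 genes or 17498 transcripts and a threshold of 0.05. Alternatives used limma 3.58.1 on log2(FPKM + 1) and log2(FPKM + 0.1), and DESeq2 1.42.0. Each SE is the log2 fold change over the root of its F statistic. No 2 samples were duplicates (chi-square per gene 3.5 to 17.9, about 1 for repeat sampling).

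The 8 genes, the lists and the tests were chosen with earlier results of these data known. Named genes were the 8, the core loop, Rorb, called members of the other clock lists (at most 4 each) and the 5 genes most like Nfil3 and Dbp; marker genes, Sphk2 and transcript models were named after their values were seen. Of the genes this rule names, 2 are not reported here; the list counts include them where they are members. On simulated counts over 13009 genes, 56.9% of 1.5-fold, 82.1% of 2-fold and 98.5% of 4-fold changes were called, with 13 false calls (7.69% of calls). Over 16561 simulated transcripts the shares were 3.12%, 34.8% and 46.3%. The labels state no pairing, so the main test used no replicate block, which was run as an alternative. Deviations of same-numbered samples from their group means correlated at -0.07, 0.33 and 0.4, and those of differently numbered samples at -0.45 to 0.2. Whether some replicates were paired cannot be told from these values.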

Additional observations from a re-analysis of the deposited data

How the results depend on the processing

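Nfil3 alone was called among the 8 genes under all 17 alternatives. The number of genes called, 420, was 272 and 267 with limma on log2(FPKM + 1) and log2(FPKM + 0.1), 895 with the replicate block, and 117 to 382 when each sample was left out in turn (117 without WT 2, 149 without WT 1, 181 without NS-DADm 1 and 273 without NS-DADm 2). The block changed the call of no other gene named from the clock lists than Arntl (adjusted p = 0.0327, edgeR). Not every sample correlated best with its own number. Core loop genes called, 1 in all samples, were 2 with DESeq2 size factors, without the count filter, with DESeq2's test or the block. In these settings Clock and Arntl rose. They were also 2 with Dbp as a covariate, where Clock rose and Per3 fell (log2 fold change -0.31, adjusted p = 0.0322, edgeR). Counts of called core loop genes were 0 with limma on either scale, and 0 to 1 when samples were left out. Transcripts called, 17, were 2 with the replicate block and 3 to 7 without single samples. Small differences changed sign. Bhlhe40 became 0.01, 0.06 and 0.01 at equal depth, with the atrial score and with Dbp as covariates, and ran from -0.13 to 0.05 without single samples. Ciart became 0.02 and 0.03 with those covariates and ran from -0.22 to 0.15, Dbp from -0.28 to 0.02 and Rora, -0.01 with Dbp as a covariate, from -0.07 to 0.09. Cry1 ran from -0.05 to 0.48, Nr1d1 from -0.2 to 0.15, and Per2, 0.01 with the block, from -0.11 to 0.21. The cause of these shifts was not tested. Depth limits Arntl, Npas2 and Rorb, with as few as 8, 24 and 10 counts in a sample.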
